A study of Mus musculus with 5 samples.

Results

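Genes of DNA replication and mitosis were read as 39 members, 17 of replication and 22 of mitosis, chosen by name from the 32285 features of each matrix and present in all 5 libraries. The libraries were 10x 3' single-cell libraries of whole hippocampus at postnatal day 1, 2 from Trem2 knockout pups (Trem2 -/-, KO) and 3 from wild-type pups (Trem2 +/+, WT). Trem2 is a surface receptor that microglia carry, and the tissue was dissociated with papain. Each library pooled 2 pups. The sample descriptions give 2 males for replicate 2 of either genotype and 1 female with 1 male for the others, whereas the sex field of the same labels gives both sexes for every library, so the sex make-up of replicate 2 is uncertain. The pups of a library cannot be told apart here, so the library is the replicate and p-values measure the spread between pools. The questions asked of the members were how many cells of each type held their UMIs, and how the 39 genes differed between types. A further question was whether KO differed from WT in any of them.

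A cell that will divide first licenses and then copies its DNA, and later condenses and separates the chromosomes. Replication genes are switched on around the start of S phase, many of them by E2F factors, whereas mitosis genes peak later under the DREAM and MuvB complexes with B-Myb and Foxm1. In the newborn hippocampus the cells that divide include radial glia, the intermediate progenitors that they produce for the dentate gyrus, oligodendrocyte precursors and young astrocytes. Neurons have left the cycle, and multiciliated ependymal cells leave it while they use part of the mitotic programme to amplify centrioles.

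The replication members cover each step of DNA copying. Cdc6 and Cdt1 load the helicase that Mcm2 to Mcm7 form, and Gins2 belongs to its active form. Pcna is the sliding clamp, Fen1 trims the lagging strand, and Uhrf1 guides maintenance methylation to the new strand. Rrm1, Rrm2 and Tyms make deoxynucleotides, and Ccne1 and Ccne2 are the E cyclins that open S phase. Among the mitosis members, Cdk1 with the cyclins Ccna2, Ccnb1 and Ccnb2 drives entry, and Plk1, Aurka and Aurkb are mitotic kinases. Bub1 and Bub1b form the spindle checkpoint, and Cdc20 and Ube2c activate and serve the anaphase-promoting complex. Top2a untangles DNA, Mki67 coats chromosomes, Birc5 belongs to the chromosomal passenger complex, and Cenpa, Cenpe and Cenpf act at the kinetochore. Kif11, Kif20b, Tpx2, Nusap1 and Hmmr are motors and microtubule-binding proteins of the spindle.

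The members' promoters are shown because the 2 sets carried different letters there. RefSeq promoter windows of build GRCm38.p6, from 250 bases before to 50 after a gene's start, matched 14 of the 17 replication members and 19 of the 22 mitosis members. For 3 replication members with 2 listed starts the first was used. The CHR element, the letters TTTGAA on either strand, stood in 14 of the 19 mitosis windows (73.7%), in 2 of the 14 replication windows (14.3%), and in 17.9% of all 32851 windows. The CCAAT box was in 84.2% of the mitosis windows, 64.3% of the replication windows and 37.4% of all windows. An E2F site, searched as TTTCCCGC, TTTCGCGC, TTTGCCGC and TTTGGCGC, was in 42.9% of the replication windows, 5.26% of the mitosis windows and 2.26% of all windows. Both CHR and CCAAT letters stood in 13 mitosis windows and in 1 replication window. A match is a description of letters and not a site shown to be bound. The 150 bases before the start are printed for 4 mitosis members and 2 replication members that results below name. The stretches run 5′ to 3′ on the gene's strand, with CHR, CCAAT and E2F letters of either strand in capitals. In the same stretch, not printed, Ccnb1 and Cenpf held no CHR letters, and Pcna and Mcm3 no E2F letters. Top2a, Cdk1 and Cdc20 were high in ependyma-like cells where Mki67 was low, and Mcm6 was lower there by far less than Mcm5.
Top2a (chr11:99024190-99024339, minus strand): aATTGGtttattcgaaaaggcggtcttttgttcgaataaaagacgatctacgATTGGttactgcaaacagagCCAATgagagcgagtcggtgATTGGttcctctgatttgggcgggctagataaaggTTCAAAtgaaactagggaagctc
Cdk1 (chr10:69352913-69353062, minus strand): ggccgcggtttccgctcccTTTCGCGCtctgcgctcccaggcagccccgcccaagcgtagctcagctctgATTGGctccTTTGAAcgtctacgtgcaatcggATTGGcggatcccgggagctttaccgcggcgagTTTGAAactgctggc
Cdc20 (chr4:118437344-118437493, minus strand): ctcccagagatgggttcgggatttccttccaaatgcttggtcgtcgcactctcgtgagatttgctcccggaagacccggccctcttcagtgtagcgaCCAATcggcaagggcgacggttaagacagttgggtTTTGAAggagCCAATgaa
Mki67 (chr7:135716380-135716529, minus strand): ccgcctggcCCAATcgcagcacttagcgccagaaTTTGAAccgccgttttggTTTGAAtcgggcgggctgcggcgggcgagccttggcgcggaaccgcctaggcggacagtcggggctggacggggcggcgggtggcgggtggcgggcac
Mcm6 (chr1:128359706-128359855, minus strand): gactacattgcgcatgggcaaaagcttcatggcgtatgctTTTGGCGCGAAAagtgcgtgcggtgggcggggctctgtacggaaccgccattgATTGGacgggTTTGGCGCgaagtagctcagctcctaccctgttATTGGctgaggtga
Mcm5 (chr8:75109359-75109508, plus strand): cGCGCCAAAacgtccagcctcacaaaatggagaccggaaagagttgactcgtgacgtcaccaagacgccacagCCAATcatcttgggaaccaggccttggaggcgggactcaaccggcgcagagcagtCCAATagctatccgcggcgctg

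After filtering, 5237 and 5192 cells were kept in KO libraries 2 and 3, against 6216, 4470 and 8115 in WT libraries 1, 2 and 3, or 29230 of 40345 barcodes in all. Libraries held 60024793 to 91205882 UMIs in total, and kept cells had medians of 7712 to 9122 UMIs per library. Pairs of libraries shared 6 to 17 cell barcodes. Levels are CPM, the UMIs of a gene scaled to the summed UMIs of a type's cells in 1 library. Trem2 in microglia-like cells was 61.8 and 76.6 CPM in KO libraries 2 and 3, against 1390, 1516 and 1034 CPM in WT libraries 1, 2 and 3, which goes with the genotype labels. The dentate gene Prox1 stood at 157 to 196 CPM and the hippocampal gene Zbtb20 at 2852 to 3392 CPM over all cells of the 5 libraries. Cell types were gated on lineage markers that include no member, and each is called by its markers ("radial glia-like" and so on, written without the suffix below). The gates held 5577 radial glia, 424 cells between radial glia and progenitor, 2559 intermediate progenitors, 1051 oligodendrocyte precursors, 581 ependyma, 477 meninges, 276 endothelium, 204 mural cells, 336 microglia and 36 choroid cells. Mural and choroid cells fell under 20 cells in a library and are given as counts without a test.

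After every cell had been thinned to 2000 UMIs, a cell was called in replication when it held UMIs of at least 2 of the 17 replication members. On the same UMIs it was called in mitosis when it held at least 2 of the 22 mitosis members. Shares in replication or in mitosis are shares of such calls, which do not show that a cell was in that phase. In radial glia 29.4% and 24.2% of cells were in replication in KO libraries 2 and 3, against 26.1%, 27.9% and 27.3% in WT libraries 1, 2 and 3. The KO pair lay on both sides of the WT libraries. In mitosis were 21.98% and 17.6% of radial glia in KO libraries, against 20.1%, 18.7% and 19.2% in WT libraries, again with overlap. Without thinning, the means for mitosis were 28.7% in KO and 29.0% in WT libraries. In excitatory neurons, which do not divide, 5.51% and 5.93% of cells were called in replication in KO libraries, against 7.73%, 7.22% and 6.35% in WT libraries. For mitosis the neuronal background was 0.278% and 0.407% in KO libraries, against 0.379%, 0.425% and 0.562% in WT libraries. Median depth before thinning was 8368 UMIs in radial glia and 9773 UMIs in excitatory neurons. In excitatory neurons the mitosis call therefore had a background below 1%. The replication call had one of several percent, with Pcna alone detected in 10.7% of these neurons. Inhibitory neurons had more mitosis calls, 1.03% and 0.604% in KO libraries 2 and 3, against 1.46%, 2.17% and 1.32% in WT libraries 1, 2 and 3. Their replication calls were 6.87% and 5.03% in KO libraries, against 6.34%, 10.9% and 5.83% in WT libraries.

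**Figure D1:**
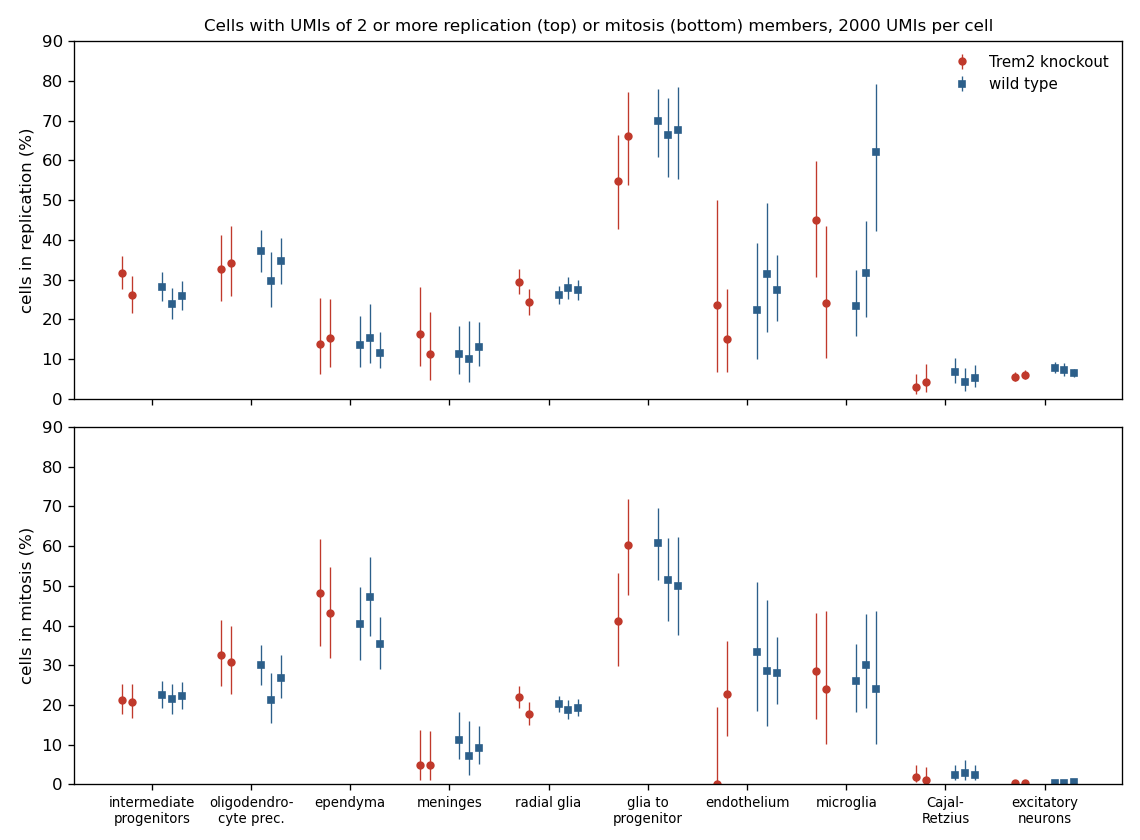
Share of cells called in replication and called in mitosis, in percent of cells thinned to 2000 UMIs, by gated cell type. Each point is 1 library, KO left of WT, and lines are exact (Clopper-Pearson) 95% binomial intervals. The ependyma points for mitosis lie between 35.3% and 48.3%, above those of radial glia (17.6% to 21.98%), and the excitatory neuron points give the background in those neurons.

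Oligodendrocyte precursors held a larger share of called cells than the whole radial glia gate, with or without Aqp4, in each of the 5 libraries. Their share in replication averaged 33.6% ± 2.76, against 27.0% ± 1.96 in radial glia (SD, n = 5), a within-library difference of 6.60 points that ran from 1.69 to 11.02 (exact sign-flip test, 2-sided, p = 0.063, the smallest that 5 libraries allow; adjusted over 10 tests p = 0.0781). Their share in mitosis averaged 28.3% ± 4.46, against 19.5% ± 1.63 (SD, n = 5), higher in 5 of 5 libraries by 2.49 to 13.2 points, with the same p. Intermediate progenitors stood close to the whole radial glia gate. Their replication share exceeded that of radial glia in 3 of 5 libraries by a mean of 0.115 points (exact sign-flip p = 0.938), and their mitosis share in 4 of 5 libraries by 2.13 points (exact p = 0.125), which turned to -0.146 points when cells were thinned to 4000 UMIs. The small gate with markers of both held the most, 54.8% and 66.2% in replication in KO libraries, against 70.0%, 66.3% and 67.6% in WT libraries, at a median depth of 11153 UMIs. Meninges lay 14.6 points below radial glia in replication and 12.1 points below in mitosis, lower in 5 of 5 libraries for both.

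Within the radial glia gate, fewer cells with UMIs of the astrocyte water channel Aqp4 were called than cells without; this split, and the ependyma and Cajal-Retzius comparisons below, were chosen after the data had been seen. Of the cells with Aqp4, 18.1% ± 2.97 were in replication, against 37.0% ± 1.25 of the cells without it (SD, n = 5). In mitosis were 11.02% ± 1.73 of the cells with Aqp4, against 29.1% ± 1.94 of those without, lower in 5 of 5 libraries (exact sign-flip p = 0.063 for both shares). The means of cells without Aqp4 were above those of oligodendrocyte precursors (33.6% in replication, 28.3% in mitosis) and intermediate progenitors (27.1% and 21.7%). Comparisons of other types with radial glia, above and below, use the whole gate, and its part with Aqp4 was not tested in them. All 39 members were lower in the cells with Aqp4 by edgeR at an adjusted p under 0.05, where 24.6% of the 13207 genes tested were lower and 25.5% higher. The median difference was -0.88 on the log2 scale for replication and -1.40 for mitosis members, against -0.00 for all genes. Bub1b, a spindle checkpoint protein, was lowest at 15.2 ± 2.56 CPM with Aqp4, against 54.5 ± 5.84 CPM without (log2 difference -1.76 ± 0.09 SE). Mki67 averaged 107 ± 18.1 CPM with Aqp4, against 296 ± 38.7 CPM without (SD, n = 5; log2 difference -1.36 ± 0.06 SE). Mcm4 and Ccne1 differed least, at -0.59 each. Of 6 early cyclins and kinases, Cdk6 (-1.45 ± 0.06), Ccnd1 (-1.14 ± 0.05) and Cdk4 (-0.65 ± 0.04) were lower, and Ccnd3 (0.29 ± 0.06) and Ccnd2 (0.15 ± 0.04) were higher. Of 12 brakes of the cycle, 6 were higher and 4 lower, with Cdkn1c, an inhibitor of cyclin-dependent kinases, at 1.26 ± 0.17 and the antiproliferative gene Btg2 at 0.58 ± 0.03. With mitochondrial shares of at most 5%, Cdkn1c was at 0.39 ± 0.16 and did not pass the threshold. Of the other pathway genes, 37 of 38 replication genes and 45 of 46 mitosis genes were lower.

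Called cells also carried cell-cycle genes that the call did not use. In radial glia, 38 of 38 other replication genes and 45 of 46 other mitosis genes had more CPM in called than in uncalled cells in each of the 5 libraries, and in intermediate progenitors 38 of 38 and 46 of 46 did. In oligodendrocyte precursors the counts were 37 of 38 and 45 of 46. In ependyma only 12 of 38 other replication genes were higher in called cells of all 5 libraries, while 40 of 46 other mitosis genes were. Of the 12 brakes, 6 were also higher in all 5 libraries in radial glia and 7 in intermediate progenitors. In oligodendrocyte precursors 9 were higher, and in ependyma 5. Lower in all 5 libraries were 3 brakes in radial glia and 2 in ependyma. The share of all genes that were higher in called cells was not computed, so these counts are descriptions. Called cells were deeper, by a factor of 1.19 to 1.26 in median UMIs in radial glia and 1.12 to 1.58 in ependyma, which CPM scales for. Of the called radial glia, 41.3% were in replication only, 39.6% in both and 19.2% in mitosis only. Of the called ependyma, 11.99% were in replication only, 16.9% in both and 71.2% in mitosis only. The same 3 shares were 37.5%, 40.5% and 22.05% in intermediate progenitors, and 35.6%, 42.9% and 21.5% in oligodendrocyte precursors.

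In intermediate progenitors most mitosis members had higher estimates than in radial glia, whereas the replication members split. Of the 17 replication members, 8 were higher and 4 lower by edgeR, with a median log2 difference of 0.14. Of the 22 mitosis members, 12 were higher and 1 lower, 19 had estimates above 0, and the median was 0.18, against 0.02 for all genes. Of all 13699 genes tested 37.6% were higher and 37.7% lower. The MCM helicase subunits split. Mcm6 had 147 and 107 CPM in progenitors of KO libraries 2 and 3 and 137, 118 and 121 CPM in those of WT libraries 1 to 3, against 82.9 and 64.2 CPM in radial glia of KO libraries and 71.7, 76.7 and 74.1 CPM in radial glia of WT libraries. Every progenitor value lay above every radial glia value, and the log2 difference was 0.77 ± 0.05 SE (adjusted p = 5.64e-13, higher in 5 of 5 libraries). Mcm7 averaged 133 ± 14.0 CPM in progenitors, against 79.9 ± 6.87 CPM in radial glia (SD, n = 5; log2 difference 0.74 ± 0.05). Mcm3 went the other way, with 55.0 ± 7.56 CPM in progenitors, against 83.7 ± 10.6 CPM in radial glia (SD, n = 5; -0.60 ± 0.07, lower in 5 of 5 libraries). Mcm4 (-0.56) and Gins2 (-0.57) were lower with it. Fen1 (0.71), Tyms (0.55) and Mcm2 (0.36) were higher, though Mcm2 did not pass with mitochondrial shares of at most 5% (0.15). These proteins form 1 complex or work at 1 fork, and their mRNAs did not keep 1 ratio between the types.

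The largest estimates among the mitosis members in progenitors were those of Cenpa (0.56), Aurka (0.55) and Cenpe. Cenpe, the kinetochore motor, averaged 98.4 ± 12.3 CPM, against 69.7 ± 4.43 CPM in radial glia (SD, n = 5; log2 difference 0.51 ± 0.06). Cenpa, Aurka, Ube2c (0.45) and Cenpf (0.41) were higher as well. Mki67 did not pass the test at 200 ± 38.0 CPM in progenitors and 193 ± 12.3 CPM in radial glia (0.05 ± 0.06, adjusted p = 0.462). Cdk1 was the mitosis member that was lower, at 96.1 ± 18.9 CPM, against 107 ± 20.3 CPM in radial glia (-0.15 ± 0.05, lower in 5 of 5 libraries). With 1 more marker required of each gate Cdk1 turned to 0.16 and Mki67 passed at 0.36. Outside the members, 19 of 38 other replication genes were higher and 4 lower, and 20 of 46 other mitosis genes were higher and 5 lower. Dut, which keeps uracil out of DNA, was at 1.24 ± 0.05 and the S-phase activator E2f1 at 1.19 ± 0.09. Of the early cyclins and kinases, Ccnd1 was lower by far (-3.48 ± 0.08) while its partner Cdk4 was higher (1.06 ± 0.04). Of the 12 brakes, 3 were higher and 6 lower, with Cdkn1a (p21) at -2.03 ± 0.18 and Btg2 at -1.93 ± 0.08.

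**Figure D2:**
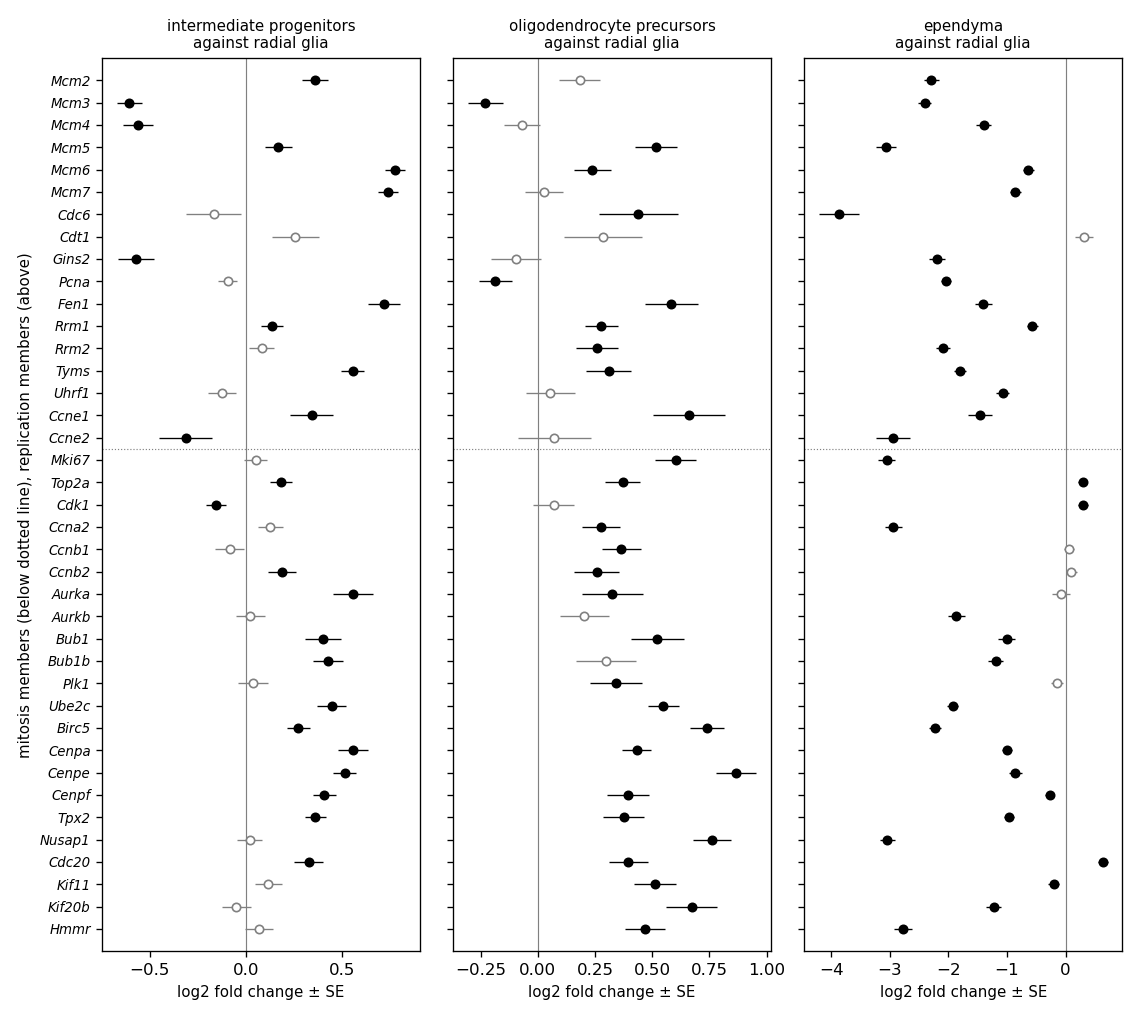
Log2 fold change of each of the 39 members in intermediate progenitors, oligodendrocyte precursors and ependyma against radial glia (1 panel each, with its own scale), as estimate ± SE over 5 libraries; filled points passed the edgeR threshold. In the ependyma panel Top2a (0.29), Cdk1 (0.30) and Cdc20 (0.63) lie above 0 while Mki67 (-3.05) and Mcm5 (-3.07) lie far below it.

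Oligodendrocyte precursors had more of nearly the whole mitosis set. Of its 22 members 19 were higher than in radial glia and none was lower, and of the 17 replication members 8 were higher and 2 lower by edgeR, where 29.6% of 13418 genes were higher and 29.7% lower. Cenpe had 170 and 155 CPM in precursors of KO libraries and 138, 120 and 95.9 CPM in those of WT libraries, against 76.7 and 64.8 CPM in radial glia of KO libraries and 69.1, 67.4 and 70.3 CPM in radial glia of WT libraries. The ranges did not overlap, and the log2 difference was 0.87 ± 0.09 (adjusted p = 2.61e-08). Nusap1 averaged 122 ± 25.6 CPM in precursors, against 67.6 ± 6.30 CPM in radial glia (0.76 ± 0.08). Mki67 averaged 314 ± 84.5 CPM, against 193 ± 12.3 CPM (SD, n = 5; 0.60 ± 0.09), and its spread among precursors was wide. Birc5 (0.74), Kif20b (0.67), Ccne1 (0.66) and Mcm5 (0.52) were also higher. Pcna (-0.19 ± 0.07) and Mcm3 (-0.23 ± 0.08) were the replication members that were lower, and neither passed without WT library 2 or without WT library 3. Cdk1 did not pass the test (0.07 ± 0.09). Of the other mitosis genes 30 of 46 were higher and 2 lower, and of the other replication genes 12 of 38 higher and 7 lower, with the methyltransferase Dnmt1 at 0.74 ± 0.07. The D cyclins traded places, Ccnd1 at 1.59 ± 0.06 and Ccnd2 at -1.72 ± 0.06.

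Meningeal cells, which include the fibroblasts that cover the hippocampus, had the lowest mean mitosis share of the 8 types tested. No member was higher than in radial glia, and 15 of 17 replication and 21 of 22 mitosis members were lower, where 29.5% of 13465 genes were higher and 29.3% lower. Rrm2, a subunit of ribonucleotide reductase, averaged 19.98 ± 2.08 CPM in meninges, against 62.9 ± 4.48 CPM in radial glia (SD, n = 5; log2 difference -1.51 ± 0.13, lower in 5 of 5 libraries). Pcna averaged 79.8 ± 7.17 CPM, against 173 ± 9.25 CPM (-0.94 ± 0.08). Ccnb1 was at -1.88 ± 0.27, Mki67 at -1.55 ± 0.22 and Top2a at -1.46 ± 0.21. The cycle inhibitor Cdkn1c was higher by 5.30 ± 0.21 and Ccnd3 by 1.75 ± 0.09, while Ccnd1 (-2.52 ± 0.11) and Ccnd2 (-2.57 ± 0.09) were lower.

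Ependyma had a mean mitosis share of 42.8% ± 5.25 and a mean replication share of 13.9% ± 1.52 (SD, n = 5). Called in mitosis were 48.3% and 43.0% of ependyma in KO libraries 2 and 3, against 40.3%, 47.1% and 35.3% in WT libraries 1 to 3. Called in replication were 13.8% and 15.2% in KO libraries, against 13.4%, 15.4% and 11.6% in WT libraries. The genotypes overlapped for both. Set beside radial glia, ependyma lay 23.3 points higher for mitosis (16.1 to 28.4, higher in 5 of 5 libraries) and 13.1 points lower for replication (lower in 5 of 5), with exact sign-flip p = 0.063 for each. Ependyma were deeper than radial glia, at 15928 against 8368 median UMIs, and unthinned replication shares reached 83.5% in KO and 83.2% in WT libraries, 24.2 points above radial glia, so the lower replication share holds at equal depth only.

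The members behind that share were a subset. Of the 22 mitosis members 3 were higher than in radial glia and 15 lower, and of the 17 replication members none was higher and 16 lower, where 38.9% of 14684 genes were higher and 37.8% lower. Top2a had 428 and 352 CPM in ependyma of KO libraries and 352, 373 and 288 CPM in ependyma of WT libraries, against 265 and 284 CPM in radial glia of KO libraries and 297, 248 and 270 CPM in radial glia of WT libraries. It was higher in 5 of 5 libraries (log2 difference 0.29 ± 0.07, adjusted p = 0.00102). Cdc20 averaged 108 ± 35.7 CPM in ependyma, against 63.2 ± 11.2 CPM in radial glia (0.63 ± 0.08), and Cdk1 144 ± 42.04 CPM, against 107 ± 20.3 CPM (SD, n = 5 each; 0.30 ± 0.08). With mitochondrial shares of at most 5%, Top2a (0.11) and Cdk1 (0.18) no longer passed. Ccnb1 (0.06 ± 0.09), Ccnb2 (0.10 ± 0.09), Aurka (-0.08 ± 0.16) and Plk1 (-0.15 ± 0.10) did not pass the test. Cenpf (-0.27 ± 0.08) and Kif11 (-0.20 ± 0.09) were slightly lower, and neither passed with a stricter gate. Mki67, the usual label of proliferation, averaged 26.1 ± 11.3 CPM, against 193 ± 12.3 CPM (-3.05 ± 0.14, adjusted p = 1.85e-15), which is 8.30-fold lower. Nusap1 (-3.04), Ccna2 (-2.94), Hmmr (-2.78) and Birc5 (-2.23) were lower as well.

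The replication members were low in ependyma with a pair of milder cases and 1 that did not pass the test. Cdc6 (-3.87 ± 0.34), Mcm5 (-3.07 ± 0.17), Mcm3 (-2.40 ± 0.11), Mcm2 (-2.29 ± 0.13) and Pcna (-2.05 ± 0.08) were far lower. Mcm6 was lower only by 0.63 ± 0.09 on the log2 scale and Rrm1 by 0.57 ± 0.09, and Cdt1, which loads the helicase, was that one, at 0.31 ± 0.16. Of the brakes, Cdkn1a was higher by 3.65 ± 0.15 and 11 of 12 were lower, among them Gmnn, the inhibitor of Cdt1, at -2.09 ± 0.14. Ccnd1 was lower by 3.81 ± 0.10 and Ccnd2 by 2.79 ± 0.08. Of the other mitosis genes 11 of 46 were higher and 30 lower. The securin Pttg1 (1.81 ± 0.07), Ckap2l (1.61 ± 0.07) and Cenpw (0.70 ± 0.08) were the higher ones with the smallest p, and Cdca3 (-3.08 ± 0.11) and the APC inhibitor Fbxo5 (-3.76 ± 0.20) were lower.

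The same split held cell by cell. Top2a had a UMI in 29.9% of thinned ependyma (27.0% to 34.5% over the libraries) and in 14.0% of thinned radial glia, but Mki67 in 4% of ependyma (23 of 575 cells) and 13.8% of radial glia. Without thinning, Top2a was found in 56.2% of ependyma and 22.4% of radial glia, and Mki67 in 17.9% of ependyma and 22.7% of radial glia. Of the 172 ependyma with Top2a, 8.72% also held Mki67, 5.23% Birc5 and 4.65% Nusap1. Of the 764 radial glia with Top2a, 64.9% also held Mki67, 43.8% Birc5 and 34.4% Nusap1. Cenpf was found in 49.4% of the Top2a-positive ependyma and 62.7% of the Top2a-positive radial glia, Cdk1 in 36.6% and 48.0%, and Cdc20 in 33.7% and 25.4%. Pcna accompanied Top2a in 9.30% of those ependyma and 47.6% of those radial glia. In thinned excitatory neurons, none of the 22 mitosis members was found in more than 0.964% of cells. The median depth of these neurons before thinning was 9773 UMIs.

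**Figure D3:**
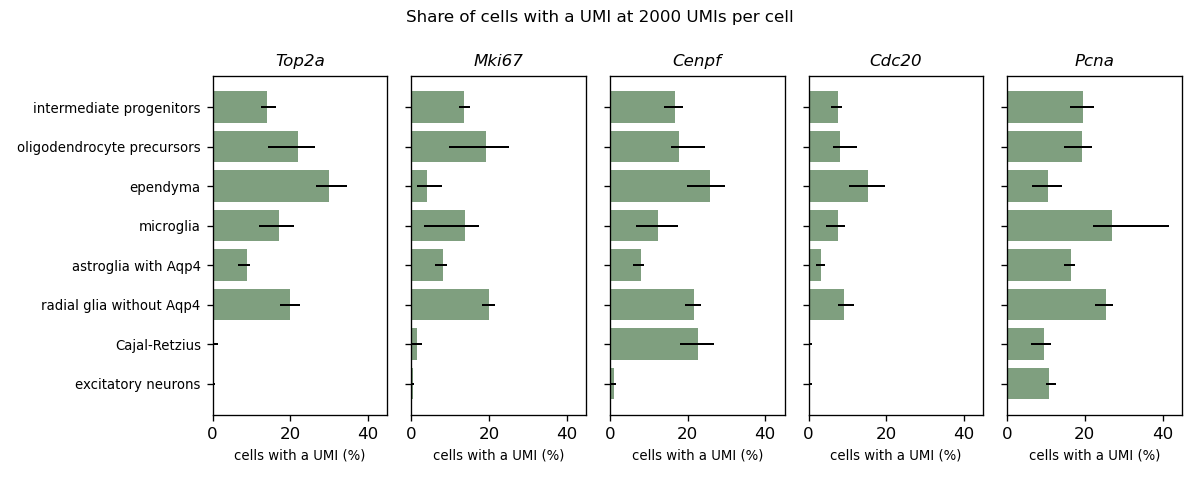
Percent of cells thinned to 2000 UMIs that hold a UMI of Top2a, Mki67, Cenpf, Cdc20 or Pcna, by cell type; bars pool the 5 libraries and lines run from the lowest to the highest library. Cenpf stands at 22.8% in Cajal-Retzius cells, and in ependyma Top2a is at 29.9% and Mki67 at 4%.

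Cajal-Retzius cells, early-born neurons of the marginal zone that have left the cycle, stood far above excitatory neurons in the kinetochore gene Cenpf. Cenpf had 159 and 128 CPM in Cajal-Retzius cells of KO libraries and 141, 123 and 162 CPM in those of WT libraries, against 3.98 and 5.78 CPM in excitatory neurons of KO libraries and 5.23, 4.48 and 6.15 CPM in excitatory neurons of WT libraries. The log2 difference was 4.77 ± 0.09 (edgeR adjusted p = 2.80e-20, higher in 5 of 5 libraries), a 27.3-fold difference. It was found in 22.8% of the thinned cells (18.3% to 26.5%) and in 0.964% of thinned excitatory neurons. Median depths before thinning were 12981.5 and 9773 UMIs. Without thinning these shares were 69.4% in Cajal-Retzius cells and 5.59% in excitatory neurons. The other 15 mitosis members that passed the low-count filter included 4 higher and 3 lower ones, so 5 of the 16 tested were higher, with 5 of the 16 replication members tested higher and 5 lower, where 33.4% of 13777 genes were higher and 35.1% lower. Mki67 averaged 6.78 ± 2.46 CPM, against 1.78 ± 0.412 CPM in excitatory neurons (1.89 ± 0.25), and was found in 1.44% of thinned cells. Gins2 (0.99), Mcm6 (0.97) and Mcm4 (0.75) were higher and Rrm2 (-1.60) and Mcm7 (-0.75) lower. Only 1.95% and 1.23% of these cells were called in mitosis in KO libraries, against 2.44%, 2.98% and 2.44% in WT libraries. Outside the members, Gtse1, which binds microtubules and restrains p53, was at 5.57 ± 0.29 and Cdkn1a at 5.07 ± 0.15.

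Summed over all kept cells, all 39 members were lower in KO than in WT in estimate, and none passed the test. By edgeR, 0 of 39 members passed an adjusted p of 0.05 and 13 had an unadjusted p under 0.05, where 0% of 18348 genes passed and 11.6% had such a p. By DESeq2 none passed either. Mki67 was 65.8 and 56.7 CPM in KO libraries 2 and 3, against 120, 89.2 and 69.8 CPM in WT libraries 1 to 3 (log2 difference -0.56 ± 0.22 SE, edgeR adjusted p = 0.421). The groups did not overlap, but WT library 3 stood next to KO library 2. Top2a was 102 and 90.7 CPM in KO libraries, against 188, 147 and 107 CPM in WT libraries. Mcm4 had the smallest p, with 24.1 and 21.1 CPM in KO libraries, against 36.1, 29.5 and 32.9 CPM in WT libraries (-0.49 ± 0.13, adjusted p = 0.390). The median over the members was -0.35 for replication and -0.51 for mitosis, against -0.01 for all genes, of which 51.9% were below 0. In such sums fewer cells of a type and less RNA per cell cannot be told apart.

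Shares of cell types differed between the libraries as well. The 4 gates of radial glia, progenitors, the cells between them and oligodendrocyte precursors held 29.9% and 24.8% of KO cells, against 42.9%, 40.7% and 27.97% of WT cells (exact permutation test, 2-sided, p = 0.3, where 0.1 is the smallest that 2 against 3 libraries allow). WT library 3 lay within the KO values. Excitatory neurons were 34.5% and 33.3% of KO cells, against 21.3%, 21.2% and 28.7% of WT cells (exact p = 0.2). Meninges were 1.18% and 1.23% of KO cells, against 2.01%, 1.61% and 1.90% of WT cells (exact p = 0.1), and ependyma 1.11% and 1.58% of KO cells, against 1.91%, 2.35% and 2.67% of WT cells (exact p = 0.2), both without overlap. Adjusted over the 12 comparisons of this kind, p was 0.45 or above for each. Of all thinned cells 9.52% and 8.28% were in mitosis in KO libraries, against 13.6%, 13.4% and 9.89% in WT libraries (exact p = 0.2), and of those, 76.9% and 69.2% lay in the 4 gates in KO libraries, against 76.8%, 68.4% and 64.3% in WT libraries. The part of the makeup in the lower sums was not tested, and the gates are compared 1 by 1 below.

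Within radial glia the members did not differ detectably between genotypes. None of 39 passed the edgeR test or DESeq2 and none had an unadjusted p under 0.05, where 0% of 14007 genes passed and 1.88% had such a p. Mki67 was 189 and 199 CPM in KO radial glia, against 199, 174 and 206 CPM in WT radial glia (log2 difference -0.01 ± 0.11). Top2a was 265 and 284 CPM in KO, against 297, 248 and 270 CPM in WT radial glia (-0.01 ± 0.12). Pcna was 186 and 162 CPM in KO, against 176, 174 and 167 CPM in WT radial glia (-0.01 ± 0.12), and Mcm2 39.6 and 31.1 CPM in KO, against 35.5, 40.5 and 32.5 CPM in WT (-0.05 ± 0.16). The genotypes overlapped for all of these, and for Pcna the KO values lay on both sides of the WT values. The largest estimates were Bub1 at 0.28 ± 0.15, with 25.1 and 28.3 CPM in KO and 21.4, 18.5 and 24.9 CPM in WT radial glia, and Cdc20 at 0.28 ± 0.15. The gate between radial glia and progenitor also had 0 of 39 members past the test or at an unadjusted p under 0.05. Of 8684 genes 0.0461% were called lower and 3.11% had such a p. Its replication shares, given above, did not overlap between genotypes, a difference of -7.50 points (exact permutation p = 0.1, adjusted p = 0.64). Its 5 astrocyte markers summed to 47.0 and 28.4 CPM in KO, against 122, 79.0 and 125 CPM in WT libraries. The 8 inhibitory neuron markers went the other way, at 14.4 and 21.3 CPM in KO, against 3.86, 10.95 and 9.98 CPM in WT libraries. The part of these markers was not tested.

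**Figure D4:**
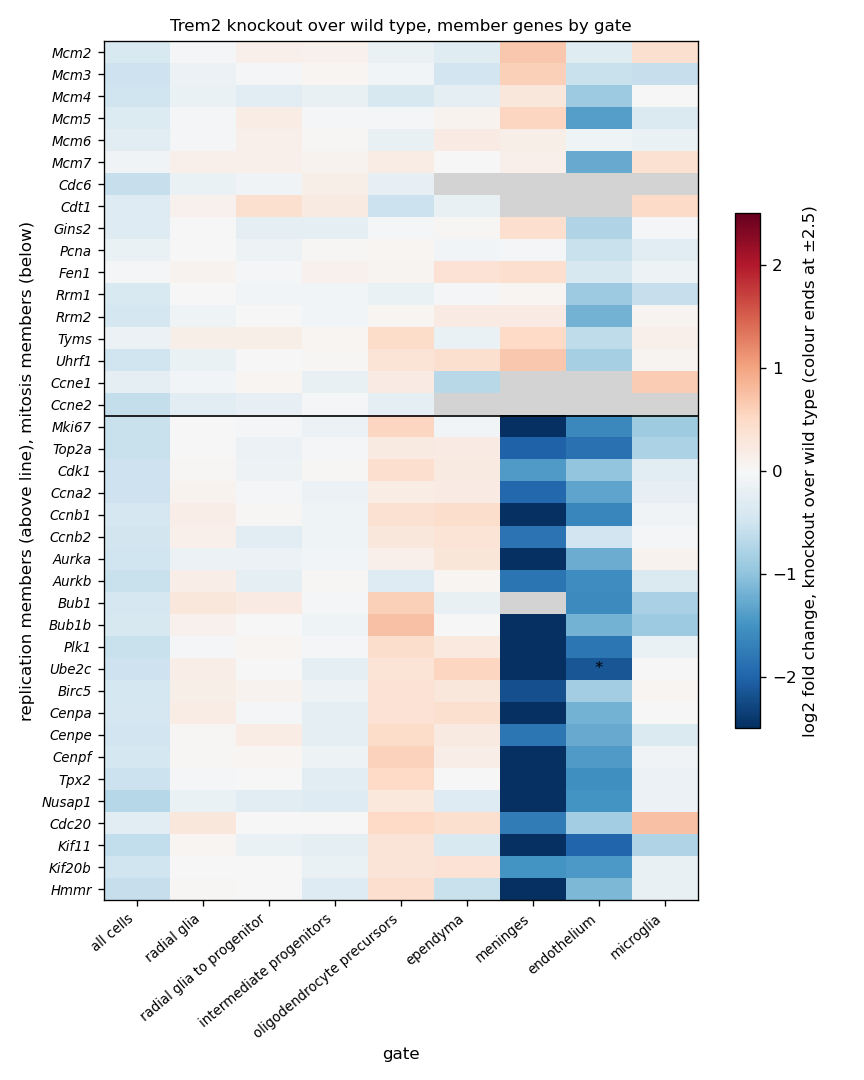
Log2 fold change KO over WT of each of the 39 members, 1 row per member and 1 column per gate, from sums per library (KO n = 2, WT n = 3); grey cells did not pass the low-count filter, colours end at 2.5 in either direction, and a star marks the member past the edgeR threshold. Mitosis members are near 0 in radial glia (median 0.04), above it in oligodendrocyte precursors (0.38) and far below it in meninges (-2.53).

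Intermediate progenitors gave 0 of 39 members past the edgeR or the DESeq2 threshold and 3 at an unadjusted p under 0.05, where 0% of 12121 genes passed and 2.36% had such a p. Hmmr, a spindle-assembly factor, was 57.7 and 48.2 CPM in KO, against 67.9, 68.3 and 64.2 CPM in WT progenitors (log2 difference -0.33 ± 0.13, edgeR adjusted p = 1). Ube2c, the ubiquitin-conjugating enzyme of anaphase, was 205 and 210 CPM in KO, against 267, 230 and 237 CPM in WT progenitors (-0.24 ± 0.11). Both KO values lay below all WT values for these genes. Mki67 was 206 and 169 CPM in KO, against 263, 174 and 187 CPM in WT progenitors (-0.15 ± 0.16), and Mcm6 147 and 107 CPM in KO, against 137, 118 and 121 CPM in WT (0.03 ± 0.14). The genotype effect was compared directly between progenitors and radial glia as an interaction. It was more negative in progenitors for Ube2c (-0.38 ± 0.14) and Cenpa (-0.40 ± 0.15), with edgeR adjusted p = 1, though Ube2c passed without KO library 3, at -0.73. By edgeR and by DESeq2 0 of 39 members passed, and 5 of 39 members had an unadjusted p under 0.05, where 3.12% of 13699 genes did. In mitosis were 21.4% and 20.8% of KO progenitors, against 22.5%, 21.4% and 22.3% of WT progenitors, a difference of -1.01 points (exact permutation p = 0.2, adjusted over 16 tests p = 0.64).

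In oligodendrocyte precursors most mitosis members had higher estimates in KO than in WT. By edgeR 0 of 39 members passed, as by DESeq2, where 0% of 10792 genes passed. An unadjusted p under 0.05 was found for 12 members, 11 of them mitosis members with higher estimates in KO, where 2.94% of genes had such a p. With the replicate number as a block 10 members passed, where 0.485% of all genes did. The labels name no shared batch for these numbers. Cenpf was 507 and 411 CPM in KO, against 368, 277 and 281 CPM in WT precursors (log2 difference 0.58 ± 0.17, edgeR adjusted p = 1). Mki67 was 403 and 366 CPM in KO, against 350, 200 and 253 CPM in WT precursors (0.53 ± 0.19, with the same adjusted p). The KO libraries lay above all WT libraries for both genes, with WT library 1 close. Cdc20 was 113 and 98.6 CPM in KO, against 87.2, 86.0 and 53.7 CPM in WT precursors (0.49 ± 0.22). Top2a overlapped, with 440 and 377 CPM in KO, against 480, 235 and 340 CPM in WT precursors (0.23 ± 0.22). Of the 22 mitosis members 21 had estimates above 0, where 49.4% of genes did, with a median of 0.38, whereas the replication members had a median of -0.05 and all genes -0.00. Mcm2 was 44.3 and 33.2 CPM in KO, against 48.4, 44.8 and 37.6 CPM in WT precursors, and Tyms, which makes thymidylate, 96.6 and 69.9 CPM in KO, against 71.9, 45.4 and 62.9 CPM in WT (0.47 ± 0.21). In mitosis were 32.6% and 30.8% of KO precursors, against 30.0%, 21.2% and 26.9% of WT precursors, a difference of 5.67 points (exact permutation p = 0.2, adjusted p = 0.64) that was 3.26 points without WT library 2. Without thinning the groups overlapped, at 41.7% and 44.6% in KO, against 46.0%, 37.6% and 37.4% in WT libraries. Their share in replication overlapped, at 32.6% and 34.2% in KO, against 37.1%, 29.6% and 34.5% in WT libraries. Precursors made up 2.52% and 2.33% of KO cells, against 5.45%, 4.05% and 3.43% of WT cells. The summed level of the 8 precursor markers overlapped, at 4102 and 3795 CPM in KO, against 3772, 3807 and 3927 CPM in WT libraries. Markers of other types were low in this gate and some differed without overlap. The 5 astrocyte markers, 1 of them at 0 in every library, summed to 15.96 and 14.3 CPM in KO, against 40.4, 50.2 and 29.8 CPM in WT libraries. The 9 choroid markers summed to 7.98 and 8.96 CPM in KO, against 22.3, 20.9 and 15.1 CPM in WT libraries, and the sums of mural, microglial and border macrophage markers were lower in KO too. Their part in the estimates was not tested.

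The mitosis members had their lowest KO estimates in meninges. By edgeR 0 of the 34 members that passed the low-count filter passed the threshold, and 3 members did by DESeq2. Of the 34, 22 had an unadjusted p under 0.05, where 0% of 9006 genes passed and 5.09% had such a p. The 22 were 21 mitosis members with lower estimates in KO and 1 replication member with a higher one. The filter removed Cdc6, Cdt1, Ccne1, Ccne2 and Bub1. Bub1 had 1 and 5 UMIs in KO, against 13, 9 and 28 UMIs in WT libraries. A gene low in KO could pass the filter through WT libraries alone, so these counts describe and do not test the set. Ube2c was 6.498 and 2.98 CPM in KO, against 65.7, 48.4 and 126 CPM in WT meninges (log2 difference -4.09 ± 0.58, adjusted p = 0.0610). Mki67 was 11.4 and 16.4 CPM in KO, against 89.6, 40.5 and 107 CPM in WT meninges (-2.52 ± 0.44, adjusted p = 0.126). Top2a was 40.6 and 19.4 CPM in KO, against 128, 75.4 and 155 CPM in WT meninges (-2.02 ± 0.35, adjusted p = 0.126). For all 3 genes the KO libraries lay below every WT library, and WT library 2 was the lowest of the WT libraries.

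Cdk1 was 21.1 and 20.9 CPM in KO, against 57.5, 39.4 and 68.5 CPM in WT meninges (-1.41 ± 0.32), and Ccnb1 3.25 and 2.98 CPM in KO, against 21.2, 6.75 and 36.7 CPM in WT (-2.82 ± 0.79). Plk1 had no UMI in either KO library, against 29, 6 and 41 UMIs in WT libraries, which makes it at least 8.66-fold lower in KO when 3 counts over the KO group are taken as the floor. Cdc20 overlapped, at 6.498 and 8.94 CPM in KO, against 26.0, 5.63 and 43.1 CPM in WT meninges. The replication members had estimates near or above 0. Mcm6 was 53.6 and 31.3 CPM in KO, against 43.8, 30.4 and 38.9 CPM in WT meninges (0.15 ± 0.29), and Pcna 84.5 and 71.5 CPM in KO, against 88.9, 79.9 and 74.2 CPM in WT (-0.05 ± 0.20). Mcm2 was 22.7 and 19.4 CPM in KO, against 15.7, 12.4 and 11.3 CPM in WT meninges (0.67 ± 0.37, adjusted p = 0.994). The median estimate was -2.53 for mitosis members, 0.42 for replication members and -0.00 for all genes. Of the other mitosis genes, 23 of 32 tested had an unadjusted p under 0.05 with a lower estimate, led by the midzone protein Prc1 (-3.62 ± 0.60, adjusted p = 0.126).

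Few meningeal cells lay behind these values, 62 and 64 in KO libraries, against 125, 72 and 154 in WT libraries. In mitosis were 4.92% and 4.84% of them in KO, against 11.3%, 7.14% and 9.09% in WT libraries, a difference of -4.30 points (exact permutation p = 0.2, adjusted p = 0.64). Without thinning the shares were closer, 15.9% in KO and 16.8% in WT libraries on average. In replication were 16.4% and 11.3% in KO, against 11.3%, 10.0% and 12.99% in WT libraries. Thinned mitosis shares differed by -10.9 points with mitochondrial shares of at most 5% and by -2.74 points with doublets kept. Meninges were also a smaller part of the KO libraries, as given above. The summed level of the 7 meningeal markers overlapped and was 13749 and 16658 CPM in KO, against 12086, 15194 and 12665 CPM in WT libraries. The 8 endothelial markers, 1 of them at 0 in every library, summed to 749 and 666 CPM in KO, against 892, 765 and 769 CPM in WT libraries. The 8 excitatory neuron markers summed to 92.6 and 118 CPM in KO, against 39.7, 52.9 and 78.4 CPM in WT libraries. Neither pair of ranges overlapped, and the part of these markers in the estimates was not tested. Leaving out WT library 2 brought 14 members past the edgeR threshold, where 0.349% of all genes passed, and leaving out WT library 1 brought 1, where 0.0122% did.

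**Figure D5:**
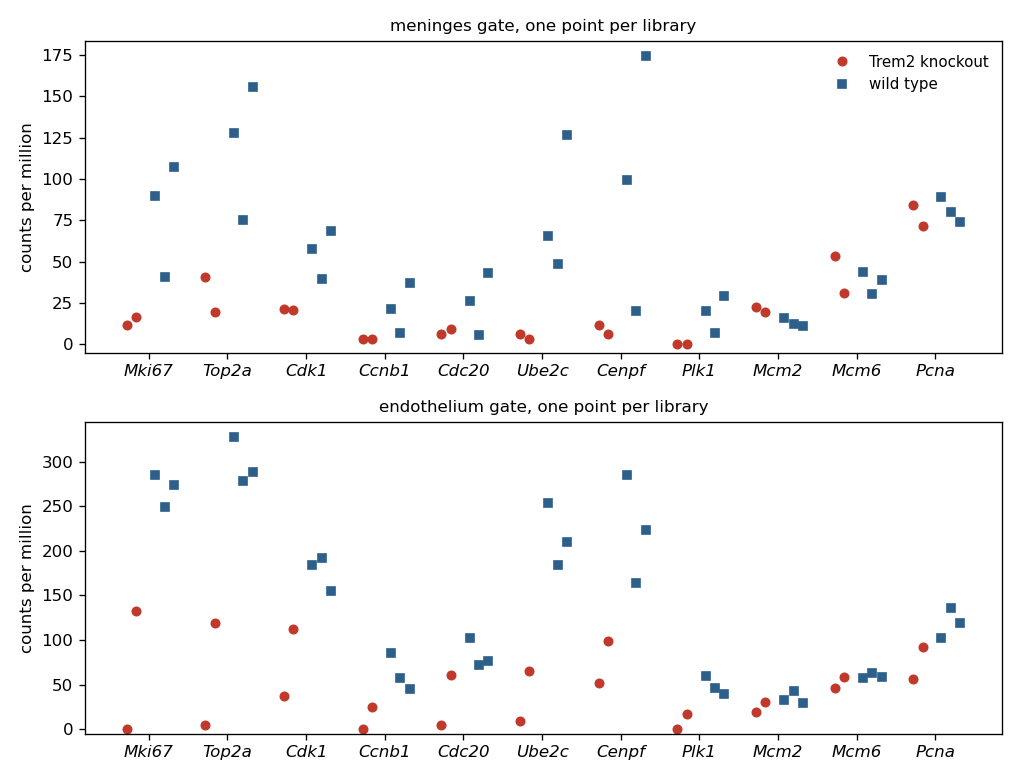
Values of selected members in meninges and endothelium, in CPM by library, KO left of WT. In meninges both KO points of Ube2c (6.498 and 2.98 CPM) lie below the 3 WT points (48.4 to 126 CPM), and in endothelium KO library 2 lies apart from KO library 3 for Mki67 (0 and 132 CPM).

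In endothelium the KO libraries did not resemble each other. KO library 2 held 20 endothelial cells and KO library 3 held 56, against 40, 35 and 125 in WT libraries. Ube2c was the one member past the edgeR threshold, where 0.0133% of 7520 genes were called lower. It was 9.33 and 64.7 CPM in KO, against 254, 184 and 210 CPM in WT endothelium (log2 difference -2.13 ± 0.32, adjusted p = 0.0113), and both KO libraries lay below all WT libraries. Mki67 was 0 and 132 CPM in KO, against 286, 249 and 274 CPM in WT endothelium (-1.60 ± 0.41, adjusted p = 0.333). Top2a was 4.67 and 119 CPM in KO, against 328, 278 and 289 CPM in WT endothelium (-1.86 ± 0.38, adjusted p = 0.122). Pcna was 56.0 and 92.4 CPM in KO, against 102, 136 and 119 CPM in WT endothelium (-0.55 ± 0.25). Of the 22 mitosis members 21 had an unadjusted p under 0.05 with a lower estimate, where 5.39% of genes had such a p, and 7 of 13 replication members did. The filter removed Cdc6, Cdt1, Ccne1 and Ccne2, and as in meninges a gene low in KO could pass it through WT libraries alone, so these counts describe and do not test the set. In mitosis were 0 of 17 thinned cells and 22.6% in KO, against 33.3%, 28.6% and 28.1% in WT libraries (exact permutation p = 0.1, adjusted p = 0.64). The count of 0 among 17 allows a share of up to 17.6% by the rule of 3 counts, and the exact 95% upper limit is 19.5%, counting error only. Without thinning the groups overlapped, at 15% and 39.3% in KO, against 47.5%, 37.1% and 48.8% in WT libraries. The thinned difference of -18.7 points was -7.36 without KO library 2, -30.0 without KO library 3 and -3.56 with doublets kept. The summed level of the 8 endothelial markers was 14207 and 12588 CPM in KO, against 11003, 10183 and 9260 CPM in WT libraries, and that of the 10 radial glia markers 383 and 339 CPM in KO, against 405, 708 and 397 CPM in WT libraries. The astrocyte and choroid marker sums were lower in KO as well, with no overlap for any of these lists, and the part of these markers in the estimates was not tested. Leaving out KO library 3 brought 23 members past the threshold, where 0.778% of all genes passed. Leaving out KO library 2 brought 2, where 0.107% of genes passed, WT library 3 brought 7, where 0.24% did, and WT library 1 or WT library 2 left 0 members and 0% of genes. With doublets kept no member passed and Ube2c was at -0.44, and none passed by DESeq2 or with mitochondrial shares of at most 5%.

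Microglia, the cells that carry Trem2, showed no member past the edgeR or DESeq2 threshold, and 1 of 37 tested at an unadjusted p under 0.05, where 0.0274% of 7311 genes were called lower and 2.5% had such a p. That member, the checkpoint kinase Bub1b, was 24.0 and 13.5 CPM in KO, against 39.6, 33.6 and 46.2 CPM in WT microglia (-0.91 ± 0.39). Mki67 was 149 and 22.5 CPM in KO, against 221, 130 and 194 CPM in WT microglia (-0.90 ± 0.55). In mitosis were 28.6% and 24.1% of KO microglia, against 26.1%, 30.2% and 24.1% of WT microglia, and in replication 44.9% and 24.1% of KO microglia, against 23.4%, 31.7% and 62.1% of WT microglia. The genotypes overlapped for both. KO library 3 and WT library 3 had shallow microglia, at medians of 2918.5 and 2567.5 UMIs, and thinning kept 29 of 44 and 29 of 46. Without thinning, replication shares were 73.2% and 43.2% in KO, against 57.3%, 61.6% and 52.2% in WT libraries. These 2 shallow libraries also had more UMIs of radial glia markers, 811 and 1007 CPM, against 357 to 395 CPM in the other 3 libraries. The part of depth and of these markers in the shares was not tested.

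In ependyma 0 of 37 members tested passed between genotypes by edgeR or DESeq2 and 1 had an unadjusted p under 0.05, where 0% of 12574 genes passed and 3.1% had such a p. Kif11, the spindle motor, was 54.2 and 45.1 CPM in KO, against 69.2, 64.7 and 59.1 CPM in WT ependyma (-0.38 ± 0.17). Top2a was 428 and 352 CPM in KO, against 352, 373 and 288 CPM in WT ependyma (0.20 ± 0.15). Among choroid cells 0 of 4 and 2 of 4 thinned cells were in mitosis in KO libraries, against 1 of 11, 2 of 5 and 3 of 10 in WT libraries. Among mural cells 3 of 18 and 3 of 41 were in mitosis in KO libraries, against 2 of 29, 4 of 19 and 5 of 85 in WT libraries. Over the 8 tested types, the 16 comparisons of a share between genotypes had adjusted p-values from 0.64 to 1.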

How the data were processed

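The authors deposited raw UMI counts per gene and barcode for 5 libraries, made with Cell Ranger 6.1 against mm10 per the submitters' processing notes (6.1.1 per the file headers). Barcodes were kept from 500 genes and 1000 UMIs upward, and up to a mitochondrial share of 15%. Doublets were called with Scrublet (scanpy 1.11.5, Python 3.11.15). Where it marked under 0.5% of cells, the highest scores were removed up to 0.8% per 1000 barcodes. That rule was used in KO libraries 2 and 3 and WT library 2, and the automatic call in WT libraries 1 and 3. Removed were 364 of 5601 and 315 of 5507 cells in KO libraries 2 and 3. In WT libraries 1, 2 and 3 they were 149 of 6365, 246 of 4716 and 395 of 8510 cells. Cells were gated on lineage markers without members, and thinned to 2000 UMIs for shares, which left out 5.36% of KO and 4.71% of WT cells. Counts summed per library and type were tested with edgeR 4.0.16 (R 4.3.3; TMM, filterByExpr, quasi-likelihood test, Benjamini-Hochberg over all genes, threshold 0.05), and between types with library as a block. DESeq2 1.42.0 was an alternative. Shares were tested with exact permutation and sign-flip tests, 2-sided. Intervals and floors cover counting error only. The procedure was tested on simulated counts.

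The members and lists were chosen with earlier results of these data known. Any member may be named. Values in each library are given for Mki67, Top2a, Mcm2, Mcm6, Pcna, Ccnb1, Cdk1 and Cdc20 where the results turn on them, for members past the threshold, and for up to 2 members per direction with the smallest p, and as means elsewhere. Other pathway genes are named by the smallest p of their list, up to 3 per direction.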

Additional observations from a re-analysis of the deposited data

How the results depend on the processing

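With 2 KO and 3 WT libraries no share can pass a permutation test between genotypes, and small gates limit meninges and endothelium most. Of 129 named gene results, 98 kept their direction and side of the threshold under every alternative run, and 31 changed under at least 1; the cause of each change was not tested. Between types, the counts of members past the threshold stayed within 1.5 times of the reported ones, except that meninges against radial glia had 21 with mitochondrial shares of at most 5% (42.1% of all genes passed), and Cajal-Retzius against excitatory neurons 29 with doublets kept (68.1%; Nusap1 turned to 0.36). Oligodendrocyte precursors against radial glia lost up to 9 of 29 calls, with 20 to 27 when a library was left out and 20 by DESeq2.

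Between genotypes, members past the threshold in meninges numbered 3 by DESeq2 (0.0233% of all genes passed), 1 with the stricter gate (0.0114%) and 20 when genes of low counts were kept (0.507%), and ran from 0 to 14 when a library was left out. In endothelium they numbered 0 by DESeq2, 0 with doublets kept, 0 with mitochondrial shares of at most 5% and 15 with no filter (0.351%), and ran from 0 to 23 when a library was left out. The interaction ran from 0 to 1. The replicate number as a block gave 1 member in all cells (1.92% of all genes passed), 10 in oligodendrocyte precursors (0.485%), 1 in ependyma (0.903%), 18 in meninges (0.928%) and 10 in endothelium (0.489%). Same-numbered KO and WT libraries deviated together, with r from 0.462 to 0.707 for number 2 and 0.421 to 0.545 for number 3. The labels name no shared batch and only 2 pairs exist. The sample descriptions give same-numbered libraries the same sexes, which the sex field leaves uncertain for number 2.

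KO minus WT differences in shares that turned sign are in percentage points. For replication, radial glia gave 0.351 with the stricter gate, 0.400 with mitochondrial shares of at most 5% and 0.254 with doublets kept. Cells between radial glia and progenitor gave 2.70 when thinned to 1000 UMIs, and progenitors -1.22 when thinned to 4000 UMIs. Oligodendrocyte precursors gave 0.755 with 3 members for a call, 0.0644 with the stricter gate, 0.0015 with doublets kept and 1.29 with the replicate block. Ependyma gave -0.326 at 1000 UMIs, -3.45 at 4000 UMIs and -0.482 with mitochondrial shares of at most 5%. Without thinning, meninges gave -4.22 and microglia 1.17. For mitosis, radial glia gave -0.243 without thinning, and microglia 2.77 at 1000 UMIs, 3.31 without thinning, 1.12 with 3 members, 11.5 with mitochondrial shares of at most 5% and 0.349 with doublets kept.

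Leaving out each library in turn, the replication difference ran from -2.88 to 2.31 in radial glia, -13.2 to -1.81 in the cells between radial glia and progenitor, -2.45 to 1.29 in oligodendrocyte precursors, -0.135 to 4.97 in meninges and -14.9 to 6.93 in microglia. The mitosis difference ran from -1.72 to 2.61 in radial glia, -13.0 to 6.16 in the cells between and -2.67 to 1.76 in microglia. Progenitors minus radial glia in replication ran from -0.407 to 1.17, and was -0.963 with 3 members, -1.18 with mitochondrial shares of at most 5% and -0.107 with doublets kept. For mitosis it was -0.146 at 4000 UMIs. Ependyma minus radial glia in replication was 24.2 without thinning.

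Among single genes, Mki67 in progenitors against radial glia ran from -0.0487 (without WT library 1) to 0.104 when a library was left out and Cdk1 to 0.16 with the stricter gate. Cdk1 in oligodendrocyte precursors ran from -0.0400 (without KO library 3) to 0.187, and was -0.0116 without WT library 1. In ependyma Ccnb1 turned to -0.19 and Ccnb2 to -0.13 with mitochondrial shares of at most 5%. Ccnb1 turned to -0.0016 with no filter, and ran from -0.0315 (without KO library 3) to 0.172 when a library was left out. Ccnb2 passed the threshold at 0.27 with the stricter gate. Cdt1 passed at 0.41 with doublets kept, 0.40 without KO library 3 and 0.42 without WT library 3. Kif11 did not pass in several runs, among them DESeq2 and doublets kept.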

Other observations

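Within ependyma, the 172 cells with Top2a were set beside the 403 without it for genes of multiciliated-cell differentiation, chosen after their values were seen, so the values are a description with no test. Deup1, a scaffold of the deuterosomes on which centrioles are amplified, averaged 666 CPM in the cells with Top2a, against 264 CPM in those without. Ccno, a cyclin needed for centriole amplification, averaged 239 CPM, against 101 CPM, and Plk4, the kinase that starts centriole duplication, 237 CPM, against 88.3 CPM. Mcidas, a switch of the multiciliated fate, averaged 78.0 CPM, against 36.5 CPM, Foxn4 51.8 CPM, against 17.8 CPM, and Myb 463 CPM, against 255 CPM. Cdc20b, a deuterosome gene, averaged 44.8 CPM, against 15.9 CPM. The difference was smaller for the cilia genes Foxj1 (1053 CPM, against 836 CPM) and Rsph1 (1850 CPM, against 1607 CPM). Each of these 9 genes was higher in the cells with Top2a in 5 of 5 libraries.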
